A study of Solanum lycopersicum with 2 samples.

Results

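Plant surfaces are sealed by the cuticle, a layer of the lipid polyester cutin and of waxes that epidermal cells make and export. In tomato (Solanum lycopersicum) leaves, 5 loci with symbols of lipid transfer protein, cuticle or glycerol-3-phosphate acyltransferase genes were compared between seedlings overexpressing SlRBZ and wild-type seedlings. The loci were all those whose gene reference held a symbol beginning with LTP, TSW12, LE16, CER and a digit or GPAT, or made of CD and 1 digit. They were LTPG2, LTPG1, TSW12, CD2 and GPAT, which are 5 of the 17803 gene loci in the expression table. All 5 reached the minimum set for a comparison, a mean over both libraries of 1 FPKM (the fragments of a locus, scaled to its length and to the library total).

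Young primary leaves of seedlings gave 1 RNA library for each genotype, wild type (CK-1) and a plant or plants overexpressing SlRBZ (OV-5-1). The tomato cultivar, the promoter of the transgene, the number of transgenic lines and any pooling of plants are not stated in these sources. With 1 library for each genotype no difference has a replicate check and no test between genotypes was possible. The design text mentions duplicates, while 1 library for each genotype was used here, and it is not stated whether a library pools several samples. The series title links the transgene to etiolated, dwarf plants, and says nothing of the cuticle.

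Non-specific lipid transfer proteins are small, secreted, cysteine-rich proteins with a cavity that holds a lipid. In many plants they are abundant in the epidermis and have been tied to wax export, defence and responses to drought and salt. Cutin monomers are made in the epidermal cell with the help of glycerol-3-phosphate acyltransferases, while other enzymes of that name make membrane lipids. In tomato, CD2 (CUTIN DEFICIENT 2) encodes a homeodomain-leucine zipper transcription factor of class IV that is needed for a normal fruit cuticle.

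Of these loci, 2 lipid transfer protein genes, LTPG2 and TSW12, were more than 3-fold higher in the overexpressor, while LTPG1, which lies between them and was far more abundant, differed by 1.08-fold. GPAT was 6.09-fold lower and CD2 was 1.84-fold lower. Differences are overexpressor minus wild type in log2(FPKM + 1), a scale that slightly understates the change of low genes, and folds are on the same scale. The limit for a call was a difference of 1 in either direction, which is 2-fold, so LTPG2 and TSW12 were called higher, GPAT lower, and LTPG1 and CD2 neither. Among the 17631 gene loci that reached the minimum, 11.6% were called higher and 15.0% lower, beside 2 and 1 of the 5 loci here. The median of all these loci was −0.05, with quartiles of −0.60 and 0.47.

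Most low values of gene-free loci (86.8% for wild type, 79.9% for the overexpressor) were whole multiples of a fitted step for 1 fragment. From these steps the totals used to scale FPKM came to 7.47 M (mega) fragments for wild type and 14.3 M for the overexpressor. Whether these equal the sequenced fragments is not known. From these totals a 95% Poisson interval was made for each value, at an effective length of 1 kb or, for the short lipid transfer protein loci, of the span of the locus less 199 bp. The intervals cover counting error only, and would be wider if the transcripts were shorter than that.

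**Figure D1:**
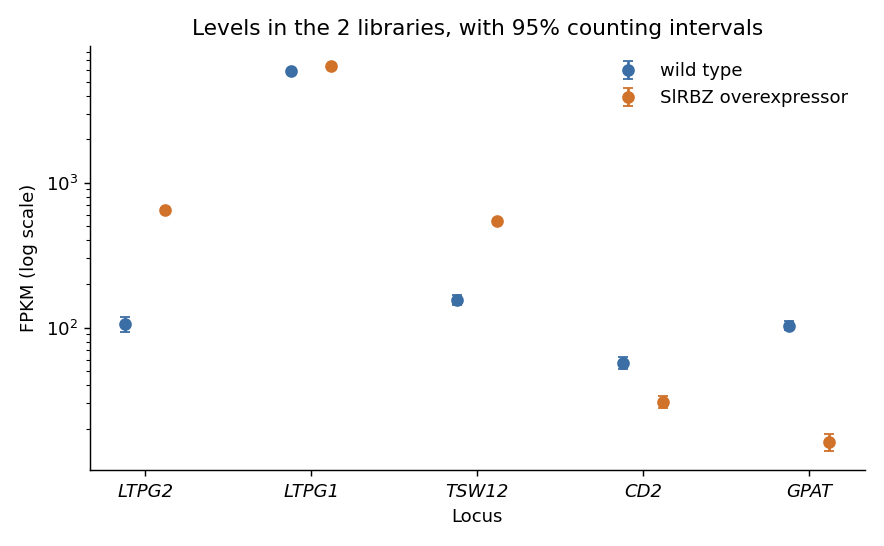
Level of each of the 5 loci (FPKM, log scale) in wild type (blue) and the overexpressor (orange), 1 library each, with 95% Poisson counting intervals as bars, many of them smaller than the points. LTPG2 and TSW12 sit higher in the overexpressor, CD2 and GPAT sit lower, and the LTPG1 points lie close together at 5933 and 6433 FPKM.

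The lipid transfer protein genes form a tight group on chromosome 10. LTPG2 (locus XLOC_003865, minus strand, 58125033 to 58125556), LTPG1 (XLOC_003866, minus strand, 58135083 to 58135826) and TSW12 (XLOC_003867, minus strand, 58156963 to 58157707) lay within 32675 bp, in the coordinates of the deposited table, whose build is not given in the sources used here. Gaps of 9526 bp and 21136 bp separated them. In the RefSeq gene table (assembly SLM_r2.1) the same genes are neighbours too, with 0 genes between LTPG2 and LTPG1 and 0 between LTPG1 and TSW12. RefSeq carries LTPG2 as a synonym of LE16, a tomato lipid transfer protein gene known for induction by drought and abscisic acid. Related copies can share reads, and how the authors assigned such reads is not given in the sources used here, so the split among the 3 genes is uncertain to that extent.

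LTPG2 read 105 FPKM in the wild-type library (interval 92.6 to 119) and 651 FPKM in the overexpressor (628 to 674). The difference was 2.62, or 6.14-fold, and 1.83% of the gene loci compared had a larger one. In the order of all gene loci by level, LTPG2 stood at place 2364 in wild type and at place 289 in the overexpressor.

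TSW12, first described in tomato as a salt-responsive lipid transfer protein gene, read 156 FPKM in the wild-type library (144 to 168) and 547 FPKM in the overexpressor (531 to 564). Its difference of 1.81, or 3.50-fold, was exceeded by 4.32% of the gene loci. The place by level moved from 1747 to 356.

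LTPG1 was the most abundant of the 5 loci in both libraries. It read 5933 FPKM in the wild-type library (5859 to 6009) and 6433 FPKM in the overexpressor (6376 to 6489), a difference of 0.12. It was at place 70 in wild type and at place 26 in the overexpressor. Among the 278 gene loci that averaged 1000 FPKM or more, 58.6% were called lower and 4.68% higher, with a median difference of −1.34, so LTPG1 was among the high loci that were called neither. The gene loci from 100 to 1000 FPKM, the range of LTPG2 and TSW12, were called higher at 6.33% and lower at 36.8% of 1927 loci.

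Ratios between loci within a library do not depend on how the libraries are scaled. LTPG1 read 56.4 times LTPG2 in wild type and 9.89 times in the overexpressor. It read 38.1 times TSW12 in wild type and 11.8 times in the overexpressor. Of the summed FPKM of the group, LTPG1 held 95.8% in wild type and 84.3% in the overexpressor, whereas LTPG2 went from 1.70% to 8.53% and TSW12 from 2.51% to 7.17%. TSW12 read 1.48 times LTPG2 in wild type and 0.841 times in the overexpressor, so the order of these 2 genes was the reverse. The summed level of the group was 6194 FPKM in the wild-type library against 7631 FPKM in the overexpressor, 1.23 times as high.

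**Figure D2:**
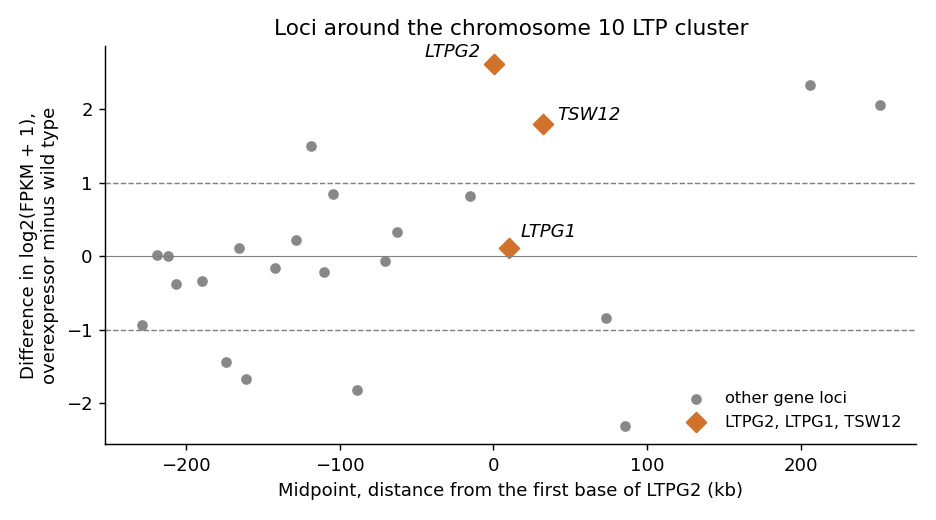
Difference in log2(FPKM + 1), overexpressor minus wild type, of gene loci within 250 kb of the lipid transfer protein genes on chromosome 10, against the distance of each midpoint from the first base of LTPG2 in kb. Orange diamonds are LTPG2, LTPG1 and TSW12, grey points are the 21 other loci, and dashed lines mark 2-fold. Loci called higher, lower and neither are interspersed along the window.

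The other genes around this group showed no single direction. Of 21 other gene loci within 250 kb on either side, 3 were called higher and 4 lower, with a median of −0.07. Over all gene loci compared, 11.6% were called higher and 15.0% lower. The nearest one, Solyc10g075070.1, ends 14841 bp before LTPG2 on the same strand. It read 491 FPKM in the wild-type library against 869 in the overexpressor, a difference of 0.82. The nearest on the other side, Solyc10g075150.1, starts 40223 bp after TSW12 and read 8.23 and 4.16 FPKM. The table gives neither of them a symbol, and both are also among the 11 other loci of the lipid export and transfer list described further on.

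CD2 (XLOC_001943, chromosome 1, minus strand, 76982193 to 76987692) read 57.3 FPKM in the wild-type library (52.0 to 63.0) and 30.7 FPKM in the overexpressor (27.9 to 33.7). The counting intervals do not overlap, and the difference of −0.88 stayed short of the 2-fold limit. A lower value was found at 17.4% of the gene loci. Of the 9251 gene loci that averaged from 10 to 100 FPKM, the range of CD2 and GPAT, 7.83% were called higher and 14.3% lower, with a median difference of −0.12. The loci around it gave no single direction, with 6 of 50 called higher and 6 lower within 250 kb (median −0.08). These shares are near the 11.6% called higher and 15.0% called lower over all gene loci.

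GPAT (XLOC_019496, chromosome 8, plus strand, 57639436 to 57652695) read 103 FPKM in the wild-type library (96.0 to 111) and 16.1 FPKM in the overexpressor (14.1 to 18.3). Its difference of −2.61 was undercut by 1.25% of the gene loci. The symbol names the enzyme class, which joins a fatty acyl group to glycerol-3-phosphate, and not its place in membrane lipid or cutin synthesis. RefSeq lists a separate gene, GPAT6, a cutin enzyme in tomato, to which the expression table gives no symbol. Downstream, 762 bp after GPAT on the same strand, Solyc08g076480.2 read 123 FPKM in the wild-type library against 28.9 in the overexpressor, a difference of −2.05. Upstream, 3577 bp before GPAT on the same strand, DAD1 read 269 and 245 FPKM. Within 250 kb, 10 of 39 other loci were called lower and 1 higher, with a median of −0.13. Lower calls were thus more frequent around GPAT than over all gene loci, at 15.0%, and higher calls less frequent than the 11.6% there.

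The order of the 5 loci by level differed between the libraries. In wild type it ran from LTPG1 through TSW12, LTPG2 and GPAT to CD2, and the counting intervals of LTPG2 and GPAT overlapped. In the overexpressor it ran from LTPG1 through LTPG2, TSW12 and CD2 to GPAT, with no overlap between neighbours. LTPG2 and GPAT, near 100 FPKM each in wild type with a ratio of 1.02, were 40.4 times apart in the overexpressor. GPAT read 1.80 times CD2 in wild type and 0.525 times in the overexpressor.

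**Figure D3:**
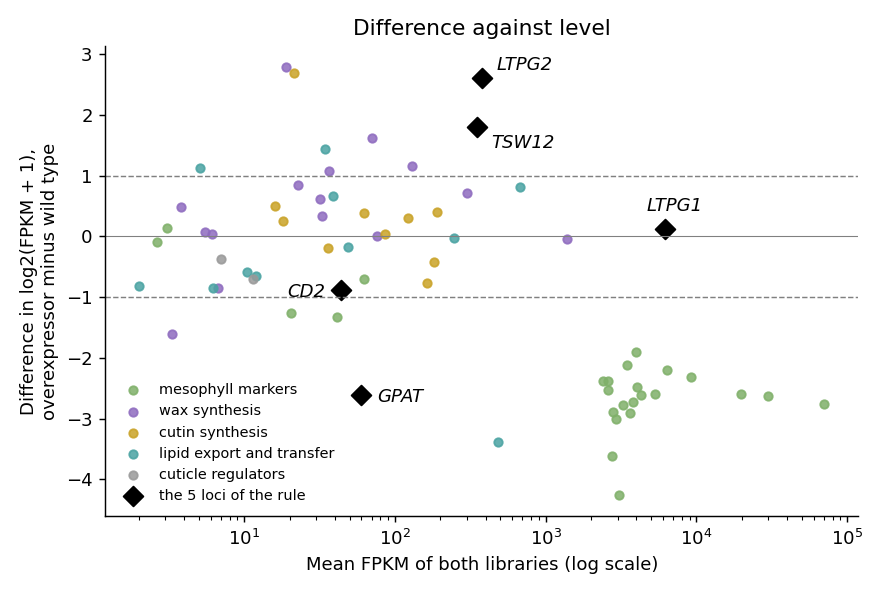
Difference in log2(FPKM + 1), overexpressor minus wild type, against the mean FPKM of both libraries (log scale), for the 5 loci (black diamonds), the other loci of the cuticle gene lists and the mesophyll marker list (coloured points). Dashed lines mark 2-fold. LTPG1 lies near 0, while the mesophyll markers above 1000 FPKM lie between −1.91 and −4.25.

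The sample was leaf, and its photosynthetic cells showed in both libraries. Mesophyll markers (RBCS, CAB and PSB symbols) were measured at 25 loci, of which 22 were called lower and 0 higher, with a median of −2.52. For each list of this paragraph, the shares over all gene loci compared were 11.6% called higher and 15.0% lower. Most mesophyll markers averaged above 1000 FPKM. Of the 278 gene loci at that level, these markers included, 58.6% were called lower, with a median difference of −1.34. The summed level of the mesophyll markers was 321079 FPKM in the wild-type library against 51485 FPKM in the overexpressor. Most of these markers shared the direction of GPAT and CD2, and not that of LTPG2 and TSW12. Their part in the differences of the loci described here was not tested. In whole leaves, fewer cells of a type and less RNA for each cell cannot be told apart. The summed FPKM of all gene loci was 2.09 times as high in wild type as in the overexpressor. Genes often used as references (actin, ubiquitin, tubulin and GAPDH symbols) had a median of −0.40 over 7 loci, of which 1 was called lower and 0 higher. The trichome list was chosen by terpene synthase symbols alone, without a check that the genes act in trichomes. It is therefore no sure measure of that cell type. Of its 5 loci, 2 were called lower and 0 higher, with a median of −0.34. That median was −1.08 at a filter of 5 FPKM and −0.71 without loci that join several genes. The vascular list of sucrose transporter symbols had 1 of 3 called lower and 0 higher (median −0.33).

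The lists of other wax and cutin synthesis genes had medians of 0.48 and 0.28, above that of all gene loci (−0.05). The wax median was near the upper quartile of all gene loci (0.47) and the cutin median lay below it. In these lists 12 of 15 and 7 of 10 loci were above 0. The share of all gene loci above 0 was not counted, but with their median below 0 it was a minority. The lists were made of tomato identifiers recalled from memory, which were not looked up in a table, and of symbols. No role is therefore given to a single identifier. In the wax synthesis list, 4 of 15 loci were called higher, 1 lower and 10 neither, with a median of 0.48, beside 11.6% called higher and 15.0% lower over all gene loci compared. TTS1 and TTS2 carried symbols of triterpenoid synthase genes, whose enzymes make triterpenoids of tomato fruit wax. TTS1 read 23.1 FPKM in the wild-type library against 49.9 in the overexpressor, a difference of 1.08. TTS2 read 8.94 and 4.51 FPKM, a difference of −0.85. The remaining called loci of the list carry identifiers only and were chosen for naming after their values were seen. Solyc01g088400.2 differed most, from 4.04 FPKM in the wild-type library to 33.8 with SlRBZ overexpressed. Solyc03g117800.2 read 34.0 and 107 FPKM and Solyc02g085870.2 read 79.9 and 181 FPKM. Solyc05g009270.2, the lower one, read 5.53 and 1.15 FPKM.

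In the cutin synthesis list, 1 of 10 loci was called higher and 0 lower, with a median of 0.28, and the share called higher is near the 11.6% over all gene loci. The higher one, Solyc01g109180.2, named after its values were seen, read 4.96 FPKM in the wild-type library against 37.6 in the overexpressor, 6.48-fold. The other 9 lay between −0.76 and 0.50, among them the locus with the highest level of the list in the overexpressor, Solyc01g094700.2, at 164 and 218 FPKM.

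The lipid export and transfer list, without LTPG2, LTPG1 and TSW12, held 11 loci with a median of −0.17. Of these, 2 were called higher, 1 lower and 8 neither, shares near the 11.6% called higher and 15.0% called lower over all gene loci. The lower one had the largest difference of all cuticle lists. It was Solyc03g121900.1, also named after its values were seen, at 884 FPKM in the wild-type library against 84.2 in the overexpressor, 10.4-fold lower. The higher ones were Solyc08g067540.1, at 18.0 and 50.5 FPKM, and Solyc06g054070.2, at 2.80 and 7.35 FPKM. The list of regulators, without CD2, held 2 loci, neither called, with differences of −0.70 and −0.37. RefSeq lists CER6, CD1, GPAT6, SHINE3, CYP77A19 and CYP77A20, cuticle genes to which the expression table gives no symbol, and they were not analysed here by name.

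**Figure D4:**
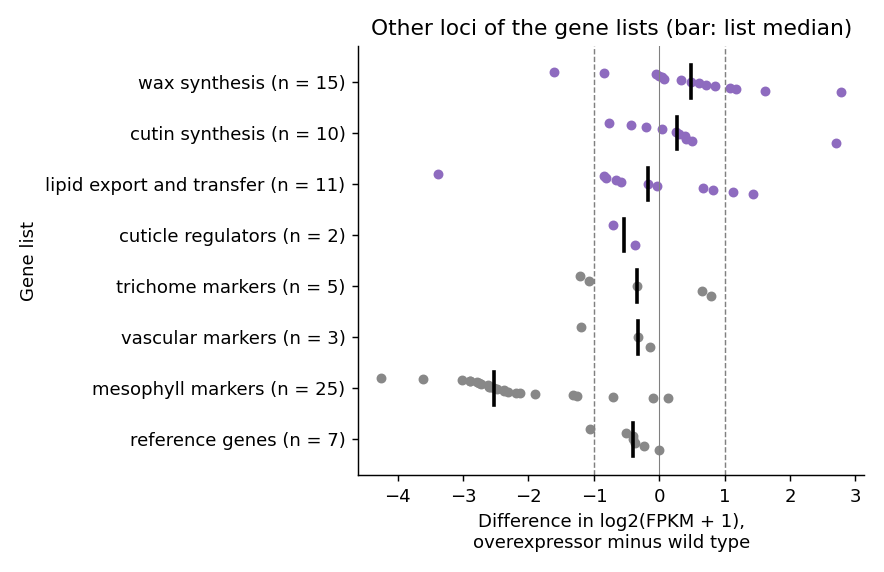
Differences in log2(FPKM + 1), overexpressor minus wild type, of the other loci of each gene list, 1 point for each locus, with the list median as a black bar and dashed lines at 2-fold. Purple points are the cuticle lists and grey points the marker and reference lists. The wax and cutin medians of 0.48 and 0.28 lie to the right of 0, and the mesophyll median of −2.52 lies to the left.

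Loci with a symbol that stood closest to each of the 5 were found by the distance between the pairs of log2(FPKM + 1) values, which rests on only 2 libraries. For CD2 these were GAME1, at 57.0 FPKM in the wild-type library against 31.3 in the overexpressor, and PPC1, at 55.9 and 31.2, at distances of 0.03 and 0.04. For GPAT they were GPI (112 and 17.7 FPKM, distance 0.17) and GA20OX1 (119 and 17.8 FPKM, distance 0.24), a gibberellin oxidase gene. For LTPG2 and for TSW12 the nearest was ELIP, an early light-induced protein gene, at 156 and 736 FPKM, with distances of 0.59 and 0.43. The second for both was a locus that the table calls UNKNOWN, at 212 and 654 FPKM, with distances of 1.00 and 0.51. LTPG1 had no close partner among the 900 single-gene loci with a symbol that were searched, and loci without a symbol were not searched. Its nearest were CYP (5133 and 3051 FPKM) and MTB (13279 and 4567 FPKM), at distances of 1.10 and 1.26.

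The calls of LTPG2 and TSW12 as higher held under 7 of 7 alternative settings. These settings could only keep or raise the differences of these genes, so the count is no check on their calls. The other scalings all raised the overexpressor, by factors from 1.19 to 7.59. The calls of GPAT, LTPG1 and CD2 held under 6 of 7, the exception being a scaling to equal sums of all loci. That scaling counts gene-free loci too, while the summed FPKM of gene loci alone was 2.09 times as high in wild type. In that setting the values of the overexpressor were multiplied by 7.59, and the median of all gene loci was 2.77. There GPAT stood at 0.24, LTPG1 at 3.04 and CD2 at 2.01. Relative to that median GPAT was still lower and LTPG2, at 5.54, still higher.

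**Figure D5:**
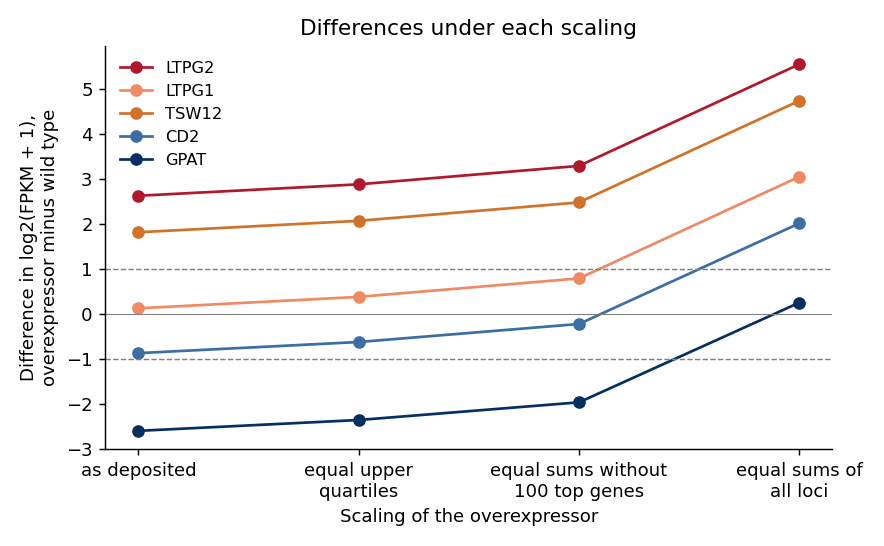
Difference in log2(FPKM + 1), overexpressor minus wild type, of the 5 loci under the deposited scale and 3 other scalings of the overexpressor, with dashed lines at 2-fold. Lines only link the values of a locus. The order of the loci is the same under each scaling, while the position of 0 moves, so that GPAT reaches 0.24 at equal sums of all loci.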

How the data were processed

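Leaf RNA was sequenced from 1 wild-type and 1 SlRBZ overexpressing sample. Per the file headers, the authors deposited FPKM for 22315 loci. The submitters' processing notes name TopHat. These sources do not state the counting tool, the annotation or the genome build. Values and 931 symbols were used as deposited, and 871 gene loci join several genes, none of them among the 5 loci described. Members and gene lists were chosen with earlier results of these data known. Named genes followed a rule: all 5 loci, up to 8 loci with a symbol and the largest differences in each list (marker lists are given as counts only), and the 2 nearest loci with a symbol. Called list loci shown by identifier only, Solyc01g094700.2 and the genes flanking LTPG2, TSW12 and GPAT were named outside this rule, after their values were seen. Product words of the lists were not used, since no table gave products.

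Differences were log2(FPKM + 1), overexpressor minus wild type, over gene loci that averaged 1 FPKM or more, with 2-fold as the limit of a call and no test. Depth came from gene-free, unstranded loci of at least 300 bp with fewer than 20 fragments: a scaling total and length offset were chosen so that values became whole. With a tolerance of 0.01, 86.8% of 1673 wild-type values and 79.9% of 1227 overexpressor values were whole, partly by this choice. The fit of the scaling total and length offset was also run on simulated data. All simulated counts were whole, so that run does not check the fit where some values are not whole, as here. The work used Python 3.11.15, NumPy 2.4.6, pandas 2.3.3 and SciPy 1.17.1. Alternatives were a pseudocount of 0.1, no filter, a filter of 5 FPKM, 3 other scalings, and leaving out joined loci.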

Additional observations from a re-analysis of the deposited data

How the results depend on the processing

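No setting measures the spread between plants, since each genotype has 1 library. The scale of the libraries moves all differences together. No paired analysis was possible because there is 1 library for each genotype and no test. The pseudocount, filter and joined-locus settings moved no difference of the 5 loci by more than its counting interval. At equal upper quartiles (median of all gene loci 0.19) LTPG2 stood at 2.87, LTPG1 at 0.37, TSW12 at 2.06, CD2 at −0.63 and GPAT at −2.37, and the cutin list median at 0.53. At equal sums without the 100 most abundant genes (median 0.58) they stood at 3.28, 0.78, 2.47, −0.23 and −1.97, and the wax, cutin, lipid export and transfer, and regulator list medians at 1.05, 0.93, 0.48 and 0.062. At equal sums of all loci (median 2.77) they stood at 5.54, 3.04, 4.73, 2.01 and 0.24, with list medians of 3.22, 3.17, 2.72 and 2.22, and the mesophyll median at 0.40. There, 4 of the 5 loci were called higher and 0 lower. The count of gene loci called higher was 1249 at a filter of 5 FPKM, 5055 without the 100 most abundant genes and 16917 at equal sums, and the count called lower was 1149 and 62 in the last 2 settings. The wax and cutin medians were above 0 in 7 of 7 settings, and the lipid export and transfer median in 3 of 7, the other scalings. Those scalings all raised the overexpressor, so a median above 0 could not fall below it there. The median of all gene loci rose with them, so these counts do not set the lists apart. The sign of CD2 and of the lower list medians depends on the scaling. Depth limits the loci under about 5 FPKM most, such as Solyc05g009270.2 and Solyc06g054070.2.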
